A study of Mus musculus with 4 samples.

Results

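CT010467.1 and Gm42418 are annotated genes that lie over each other on opposite strands of mouse chromosome 17, in a stretch of ribosomal RNA sequence. They are 2 of the 50600 genes counted in RNA sequencing libraries of mouse T-helper 2 cells. The pair was selected on values of these same libraries: the share of all gene counts that each gene held, the ratio of the counts on the 2 strands, and the spread over replicates 1, 3 and 4. Those values are therefore given as a description, with no test. The 4 libraries form a single group of primary T-helper 2 cells of strain C57BL/6NJ, with no treatment, genotype or comparison group in the labels. The labels number them as biological replicates 1 to 4 from separate biosamples of the same donor identifier, so the spread between them may be partly technical. Sex was not collected and age is given as unknown. File names in the headers include 72hr, with no statement of what the time was counted from. The labels conflict on how RNA was selected: the assay title is total RNA-seq, but the protocol document cited for library construction has PolyA+ in its name.

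Ribosomal RNA is the structural and catalytic core of the ribosome and makes up most of the RNA of a growing cell. RNA polymerase I transcribes a long precursor from tandem gene arrays in the nucleolus, and the precursor is cut into the 18S, 5.8S and 28S RNAs, which are separated and flanked by spacers that are discarded. The 18S RNA is the RNA of the small subunit, where messenger RNA is decoded. Mature ribosomal RNA has no poly(A) tail, so library protocols remove it either by selecting poly(A)+ RNA or by depletion. Activated T cells make many ribosomes before they divide. A few copies or fragments of the ribosomal gene also lie outside the arrays, and CT010467.1 and Gm42418 are annotated on such a copy.

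In the mm10 coordinates of the files, CT010467.1 (ENSMUSG00000106106.2) spans chr17:39846353-39848827 on the minus strand, with 3 exon blocks and 2466 exonic bases, and its biotype is rRNA. Gm42418 (ENSMUSG00000098178.1) spans chr17:39846958-39848788 on the plus strand as a single exon of 1831 bases, and its biotype is lincRNA. Of the bases of Gm42418, 1822 (99.5%) lie opposite exons of CT010467.1, which makes up 73.9% of the exonic bases of CT010467.1. A second minus-strand gene, AY036118 (ENSMUSG00000105361.1), lies wholly inside CT010467.1 with 923 exonic bases, so 37.4% of CT010467.1 is shared with another gene on the same strand. The plus-strand gene Gm26917 (ENSMUSG00000097971.3, 3329 bases) ends 11 bases before the locus begins. RefSeq lists a pseudogene of 1849 bases named Rn18s-rs5 on chromosome 17, with Gm42418 among its synonyms.

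**Figure D1:**
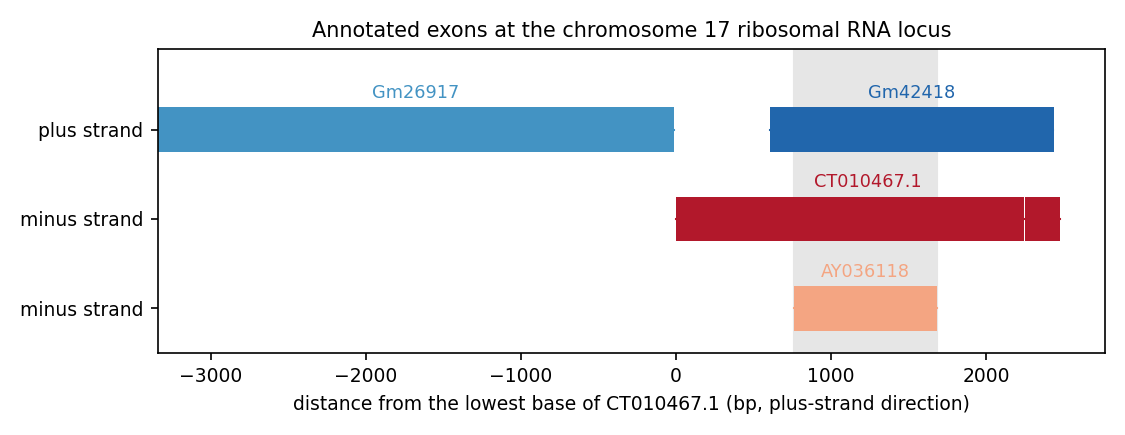
Exons at the locus, drawn to scale as distance in bases from the lowest coordinate of CT010467.1, with plus-strand genes above and minus-strand genes below. Gm42418 starts 605 bases into CT010467.1, and the grey band marks the 923 bases that CT010467.1 shares with AY036118.

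The sequences show which strand carries the ribosomal RNA. They were read from the GENCODE vM21 transcripts (mm10), and each is printed 5′ to 3′ on the strand named. The longer of the annotated transcripts of CT010467.1 has 1849 bases and ends, on its own strand, with the complement of the start of 18S RNA. The first pair below is the same end of the locus, chr17:39846353-39846412, on both strands. Capitals mark CTGGTTGAT, a conserved stretch at the start of 18S RNA, and its reverse complement.
CT010467.1 last bases, minus strand: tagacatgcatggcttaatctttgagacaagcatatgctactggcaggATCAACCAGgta
same end, plus strand: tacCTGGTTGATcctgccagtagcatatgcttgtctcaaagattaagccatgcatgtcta
At the other end, the first bases of that transcript (chr17:39848142-39848201) begin with the reverse complement of GATCATTA, the last bases of 18S RNA, in capitals.
CT010467.1 first bases, minus strand: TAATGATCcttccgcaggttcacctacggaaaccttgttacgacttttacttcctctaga
Gm42418 reads in the sense of the ribosomal RNA. Its first bases (chr17:39846958-39847017) hold CCGCGGTAA, a conserved loop of the small subunit, and a stretch further on (chr17:39848031-39848090) holds ACACCGCCC, beside the decoding site. Both are in capitals.
Gm42418 first bases, plus strand: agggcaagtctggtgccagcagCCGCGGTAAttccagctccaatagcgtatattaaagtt
Gm42418 decoding-site region, plus strand: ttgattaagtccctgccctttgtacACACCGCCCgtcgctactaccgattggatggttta
Gm42418 then runs past the end of 18S RNA. In the stretch across that border (chr17:39848142-39848261), capitals mark the part opposite the long CT010467.1 transcript and lower case the bases beyond it, where the first internal spacer of the precursor lies.
Gm42418 across the end of the long CT010467.1 transcript, plus strand: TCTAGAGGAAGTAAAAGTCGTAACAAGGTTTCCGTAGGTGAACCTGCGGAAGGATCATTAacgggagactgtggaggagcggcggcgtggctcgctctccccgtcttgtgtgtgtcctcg

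Each of the 4 motifs occurred once on the plus strand under the long CT010467.1 transcript, at positions 4, 628, 1704 and 1842 of 1849 counted from its lowest base, and had no match on the long CT010467.1 transcript as annotated. Gm42418 starts after the first motif and holds the other 3, at its positions 23, 1099 and 1237. Among the first 1849 bases of the 45885 GENCODE vM21 transcripts at least that long, CTGGTTGAT occurred in 0.682%, CCGCGGTAA in 0.054%, ACACCGCCC in 0.399% and GATCATTA in 1.61%. Their reverse complements occurred in 1.31%, 0.124%, 0.401% and 1.47%. No window held all 4 motifs, and 1 held all 4 reverse complements, which was the long CT010467.1 transcript itself. The 1244 bases of Gm42418 that lie in this transcript matched its complement at 1244 positions. These matches describe the letters and do not say which copy of the gene a fragment came from.

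The bases of Gm42418 beyond the 18S end numbered 587 and had a GC content of 71.0%, against 55.1% for its part inside 18S. Gm26917, upstream on the same strand, had a GC content of 69.1%. The median over the transcript windows was 50.4%. The longest run of A on the plus strand under the long CT010467.1 transcript was 6 bases, against a median of 5 in the windows, and 43.8% of windows had a run at least that long. On CT010467.1 as annotated it was 4.

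Libraries 1, 3 and 4 held 2388255, 1929880 and 1713199 gene counts, and replicate 2 held 5016, which is 341.5-fold fewer than replicate 4. The 3-count detection floor was at 1.26 to 1.75 CPM (counts divided by the library's total and scaled to a fixed total) in replicates 1, 3 and 4 and at 598.1 CPM in replicate 2. Means and SDs below are over replicates 1, 3 and 4, with replicate 2 given beside them. All 8 Th2 markers on the list used and all 8 T cell markers had counts in these 3 libraries. Of these, 5 Th2 markers and 2 T cell markers have exons opposite another gene. Cd247, opposite Pou2f1, had 943 of the 1390 T cell marker counts in replicate 1, 645 of 776 in replicate 3 and 618 of 957 in replicate 4. Gata3 had 61, 16 and 40 counts, against 2593, 1824 and 1867 for Gm13256 opposite. The summed Th2 level was 293, 155 and 272 CPM in replicates 1, 3 and 4. Of 14 markers of other cell types, 7 had a count, summing to 477, 496 and 540 CPM. Nearly all of these belonged to Csf1r, which lies opposite exons of Hmgxb3, with 1091, 910 and 878 counts. Alas2, a gene of heme synthesis in red cells, had 36, 35 and 27 and lies opposite Apex2, while the globin gene Hbb-bs had none. The B cell gene Cd79a had 5, 11 and 17 counts with no gene opposite, while Ms4a1, another B cell gene, had none. Col1a1, Itgam, Ncr1 and Klrb1c were also among those at 0. The part of these cell types in the results was not tested. Genes with exons opposite another gene held 90.7%, 94.2% and 91.3% of all gene counts in replicates 1, 3 and 4, and 84.8% in replicate 2.

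CT010467.1, the minus-strand gene, had more counts than any other gene in every library. It had 83161 counts in replicate 1, 201 in replicate 2, 91333 in replicate 3 and 101153 in replicate 4. As a share of all gene counts this was 3.48% (exact 95% interval 3.46 to 3.51%), 4.01% (3.48 to 4.59%), 4.73% (4.70 to 4.76%) and 5.90% (5.87 to 5.94%). These intervals, and the detection floors, cover counting error only and treat each fragment as a separate molecule. Amplified copies of a molecule were not collapsed, so the intervals may be too narrow, and whether they overlap is a description. Replicate 4 was highest and replicate 1 lowest, and the intervals of replicates 1, 3 and 4 did not overlap. The interval of replicate 2 overlapped that of replicate 1 only. The mean share was 4.71% ± 1.21 (SD, n = 3).

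The next gene by count was Gm20721 in replicates 1, 3 and 4, with 51004, 42320 and 36672 counts, and Phykpl in replicate 2, with 81. CT010467.1 exceeded it 1.63-fold in replicate 1, 2.16-fold in replicate 3, 2.76-fold in replicate 4 and 2.48-fold in replicate 2. Gm20721 held 2.14%, 2.19% and 2.14% of the counts in replicates 1, 3 and 4, so its share varied less between libraries than that of CT010467.1. Per exonic base, CT010467.1 had rank 3 in replicate 1 and rank 2 in the other libraries, at 20188, 25016, 27031 and 34599 TPM (the same scaling after division by exonic length) in replicates 1 to 4.

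The share counts only what the authors' counting assigned to genes. The counting command in the file headers sets no option for fragments that map to several places or that overlap several genes on a strand, and how many fragments were left out in that way is not analysed here. AY036118 had 0 counts in all 4 libraries while the gene around it led each of them. It shared this with every other gene of its kind: all 657 genes whose exonic bases lie wholly on other genes of the same strand had no count, against 64.5% of the other 49943 genes. The 923 bases shared with AY036118 thus added no counts to either gene, which leaves 1543 countable bases for CT010467.1 and 1831 for Gm42418.

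Gm42418, the plus-strand gene in the sense of 18S RNA, had few counts throughout. It had 160 counts in replicate 1, 4 in replicate 2, 50 in replicate 3 and 245 in replicate 4. Its share of gene counts was 0.0067% (0.0057 to 0.00782%) in replicate 1, 0.00259% (0.00192 to 0.00342%) in replicate 3 and 0.0143% (0.0126 to 0.0162%) in replicate 4. Replicate 3 was lowest and replicate 4 highest, and the intervals of these 3 libraries did not overlap. In replicate 2 the share was 0.0797% (0.0217 to 0.204%), which rests on 4 counts and lies close to the floor of 0.0598%. The mean was 0.00786% ± 0.00594 (SD, n = 3). Per length, Gm42418 was at 52.3, 19.9 and 113 TPM in replicates 1, 3 and 4. By count per exonic base it had rank 1647, 2420 and 1065 among the 15516, 13995 and 14876 genes with a count in those libraries.

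**Figure D2:**
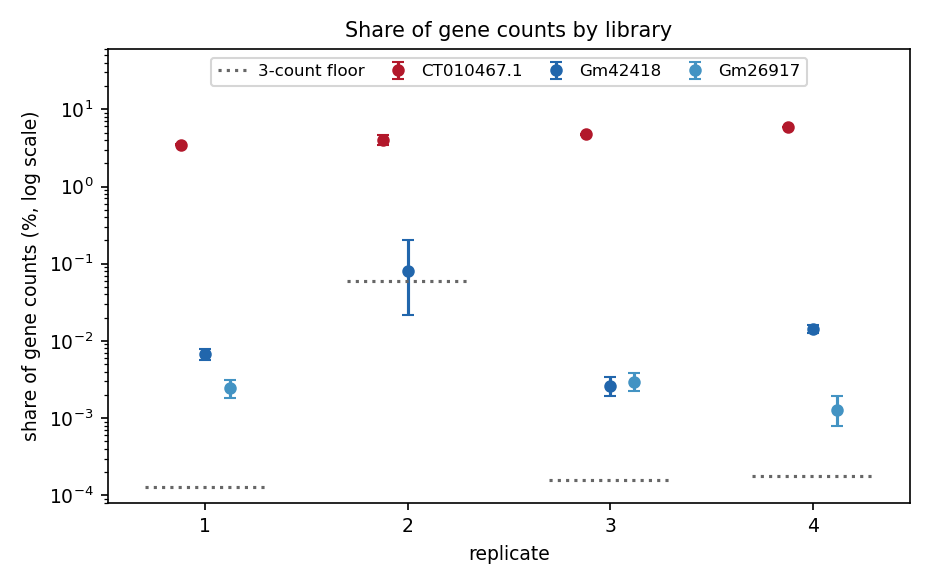
Share of all gene counts on a log axis for each library, with exact 95% binomial intervals as bars, a dotted line at the 3-count floor and points offset sideways for legibility. CT010467.1 sits between 3.48% and 5.90% in all 4 libraries, while Gm42418 in replicates 1, 3 and 4 lies between 0.00259% and 0.0143%.

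Counts at the locus were assigned almost wholly to the minus-strand gene. Gm42418 held 0.192% (0.163 to 0.224%) of the counts of both genes in replicate 1, 0.0547% (0.0406 to 0.0721%) in replicate 3 and 0.242% (0.212 to 0.274%) in replicate 4. Replicates 1 and 4 overlapped in their intervals, and replicate 3 lay below both. Over these 3 libraries Gm42418 had 455 of 276102 counts, which is 0.165% (0.150 to 0.181%). Replicate 2 gave 4 of 205 counts, 1.95% (0.534 to 4.92%), an interval that lies above those of the other 3 libraries.

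Written as a ratio, CT010467.1 had 519.8 counts for each count of Gm42418 in replicate 1, 1827 in replicate 3, 412.9 in replicate 4 and 50.3 in replicate 2. On the log2 scale with a pseudocount of 0.5, Gm42418 over CT010467.1 was −9.02, −10.82 and −8.69 in replicates 1, 3 and 4, with a mean of −9.51 ± 1.15 (SD, n = 3). It was −5.48 in replicate 2. Per exonic base, Gm42418 was at 0.259%, 0.0737% and 0.326% of CT010467.1 in replicates 1, 3 and 4. Per countable base it was at 0.162%, 0.0461% and 0.204%.

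The counting used strand setting 1, per the file headers, so a fragment counted for CT010467.1 had its first read on the minus strand, which the sequences above show to be the complement of 18S RNA. The labels do not say which strand the first read takes in these libraries. From the counts of these 2 genes alone, RNA of the plus strand and RNA of the minus strand at the locus cannot be told apart. In 133 of the 182 other nested gene pairs described below, only the gene with fewer counts per exonic base was protein-coding. In 11 it was only the gene with more, and in 38 both or neither. What this says of the strand of the first read was not tested.

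Per exonic base, the imbalance lay near the middle of that of other nested gene pairs. Besides the chromosome 17 pair, 182 pairs of genes were nested across strands, with 90% or more of the exonic bases of a gene lying inside the exons of its partner, and reached 300 counts between them in replicates 1, 3 and 4. Pairs with a gene that lies wholly on others of its own strand, such as AY036118, were left out, since such genes get no counts. The sparser gene of a pair is the one with fewer counts per exonic base over the 3 libraries pooled. Pairs were kept on their summed counts and the sparser gene was set from the same counts, which favours low values. The chromosome 17 pair was itself selected partly on its ratio, so its place among the pairs is a description. The sparser gene was at a median of 0.247% of the denser in replicate 1, 0.110% in replicate 3 and 0.245% in replicate 4. Gm42418 over CT010467.1, per exonic base, lay close to that median in all 3, above 51.6%, 43.6% and 56.9% of the pairs. Per countable base it was at 0.162%, 0.0461% and 0.204%, below the medians in all 3. The medians were not recomputed on countable bases, so this closeness depends on the length used. Both the pairs' median and the chromosome 17 pair were lowest in replicate 3.

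Pooled over the 3 libraries, the median of the other pairs was 0.205%, with an interquartile range of 0.0793 to 1.42%. Per exonic base, 94 of 182 pairs lay below the 0.222% of Gm42418, which was at 0.139% per countable base. In 133 of the 182 pairs the sparser gene was protein-coding and the denser was not. The median of those 133 was 0.182%, and 72 of them lay below Gm42418. The reverse, a protein-coding gene on the denser side only, was found in 11 pairs. In the shallow replicate 2, 110 pairs had a value, their median was 0, and 103 lay below the 2.68% of Gm42418.

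**Figure D3:**
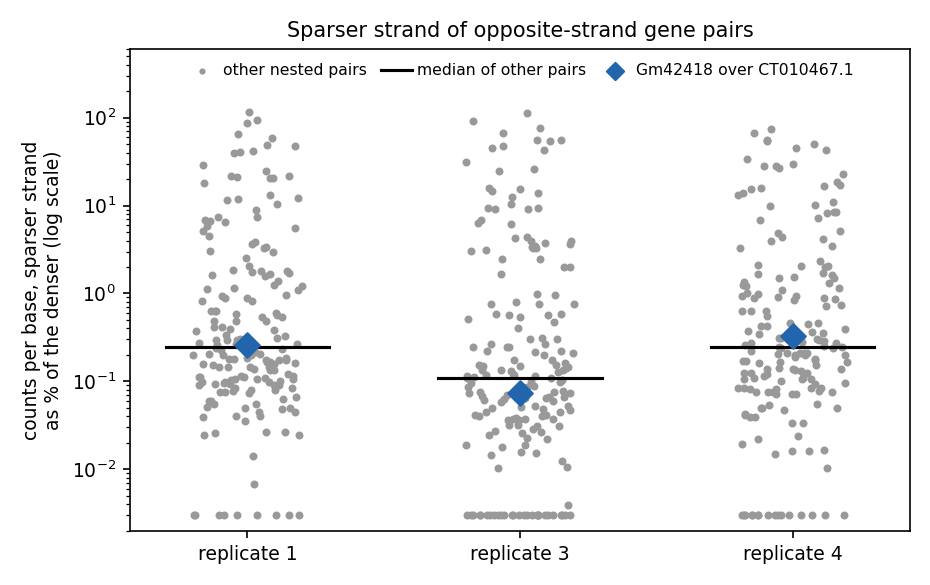
Counts per exonic base of the sparser gene as a percentage of the denser, on a log axis, for nested gene pairs on opposite strands in replicates 1, 3 and 4, with pairs at 0 drawn along the bottom. The diamond of Gm42418 over CT010467.1 (0.259%, 0.0737% and 0.326%) lies near the line for the median of the other pairs (0.247%, 0.110% and 0.245%) in each library.

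The members differed in how much they varied between libraries. The highest of replicates 1, 3 and 4 exceeded the lowest 1.70-fold for CT010467.1, with a coefficient of variation of 25.7%. For Gm42418 it did so 5.52-fold, with a coefficient of variation of 75.6%. On the log2(CPM + 1) scale the range was 0.76 for CT010467.1 and 2.42 for Gm42418, against a median of 0.64 over the 6922 genes with a mean count of 10 or more. Of these genes, 43.7% had a wider range than CT010467.1 and 1.56% a wider range than Gm42418. Among the 1306 genes with a mean count within 2-fold of that of Gm42418, 0.0766% had a wider range. The pair was selected partly on this spread, so these ranks are a description.

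The members also took the libraries in a different order. As deviations from its own mean log2(CPM + 1), CT010467.1 was at −0.40 in replicate 1, 0.04 in replicate 3 and 0.36 in replicate 4. Gm42418 was at 0.08, −1.25 and 1.17. Replicate 4 was the highest for both, but the lowest was replicate 1 for CT010467.1 and replicate 3 for Gm42418.

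The low value in replicate 3 was shared by many genes that have no exons on the other strand. The 3060 such genes with a mean count of 10 or more had a median deviation of 0.34 in replicate 1, −0.56 in replicate 3 and 0.22 in replicate 4, and 75.0% of them were lowest in replicate 3. For the 3862 genes with opposite-strand exons the medians were 0.03, −0.0045 and −0.0046, and 38.4% were lowest in replicate 3. The full order of Gm42418, with replicate 3 below 1 below 4, was found in 33.6% of the former, 16.1% of the latter and 23.8% of all. The share of all counts held by genes without opposite-strand exons was 9.26% in replicate 1, 5.78% in replicate 3 and 8.67% in replicate 4. Its part in the values of Gm42418 was not tested.

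Gm26917, which ends just upstream of the 18S sequence on the same strand as Gm42418, did not share its order. It had 58 counts in replicate 1, 0 in replicate 2, 57 in replicate 3 and 22 in replicate 4, so it was lowest where Gm42418 was highest. Per 1000 countable bases, Gm26917 had 17.4, 17.1 and 6.61 counts and Gm42418 87.4, 27.3 and 133.8 in replicates 1, 3 and 4. CT010467.1 had 53896, 59192 and 65556 on the same scale. The last bases of Gm26917 (chr17:39846282-39846341) show the pyrimidine-rich sequence next to the start of 18S and hold none of the 4 motifs.
Gm26917 last bases, plus strand: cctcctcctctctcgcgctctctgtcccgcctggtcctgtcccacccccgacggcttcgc

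The 5 genes whose pattern over replicates 1, 3 and 4 was nearest to that of Gm42418, by Euclidean distance between deviations of log2(CPM + 1), were Ptpn4, Tmx3, Cbx5, Dhx29 and Rps6kb2, at distances of 0.0134 to 0.129. Ptpn4, the nearest, had 19, 5 and 31 counts. The nearest to CT010467.1 were Ssr2, Vsig2, Il23r, Vmn2r-ps119 and Trim14, at distances of 0.0032 to 0.0314. Ssr2 had 65, 72 and 80 counts. With 3 libraries many genes come close to any pattern, and the 10 genes had at most 80 counts in any library.

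The mitochondrial ribosomal RNAs, mt-Rnr1 and mt-Rnr2, are the RNAs of the small and large subunits of the mitochondrial ribosome. They lie on the plus strand with no gene opposite and, like Gm42418, were lowest in replicate 3 and highest in replicate 4. mt-Rnr1 had 64, 20 and 76 counts in replicates 1, 3 and 4, and mt-Rnr2 had 110, 49 and 133. Replicate 2 had 0 and 1. Together they held 0.00729%, 0.00358% and 0.0122% of all gene counts, which is of the order of Gm42418 and far below CT010467.1. These shares cover only the annotated strand, since fragments on the other strand of mt-Rnr1 and mt-Rnr2 had no gene to be counted for. CT010467.1, in contrast, is annotated on the complement of the ribosomal RNA. Whether mitochondrial ribosomal RNA was scarce beside the RNA of the CT010467.1 locus was therefore not tested. The mitochondrial genome as a whole held 1.88%, 1.93% and 2.20%.

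**Figure D4:**
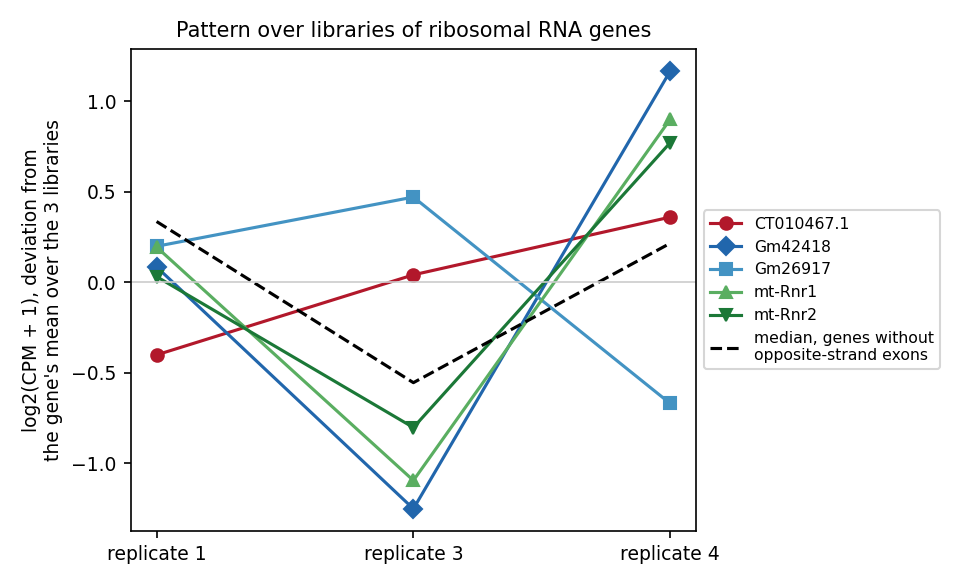
Deviation of log2(CPM + 1) from each gene's own mean in replicates 1, 3 and 4, with a dashed line for the median of the 3060 genes without opposite-strand exons. Gm42418, mt-Rnr1 and mt-Rnr2 dip in replicate 3 and peak in replicate 4, CT010467.1 is lowest in replicate 1, and Gm26917 is lowest in replicate 4.

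Other RNAs that carry no poly(A) tail had few counts on their annotated strand. The remaining 353 genes of rRNA biotype had 83, 87 and 65 counts in replicates 1, 3 and 4, from 27 genes, against at least 83161 for CT010467.1 alone. The 180 annotated genes of 5S RNA, the small RNA of the large subunit, gave 48, 52 and 41 of these, from 16 genes. The 5S gene with the most, n-R5s202, had 16, 22 and 13 counts and lies opposite Emc7. Next came n-R5s183, with 17, 11 and 6 counts and no gene opposite. Gm15564, of antisense biotype, was also looked up and had 5, 3 and 3. Rn45s and Rn18s-rs5 matched no symbol of the annotation used.

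Of 14 RNAs on a list without poly(A) tails, such as the 7SK RNA Rn7sk and the RNase P RNA Rpph1, 12 had no count in replicates 1, 3 and 4. Rmrp had 1 count in replicate 1 and Rn7s1 had 1 in replicate 4. Replication-dependent histones, whose messenger RNAs end in a stem-loop in place of a tail, had 21, 11 and 9 counts over 68 genes, 17 of which had a count. The 1383 genes of snRNA biotype summed to 1072, 983 and 859 counts, of which Gm23865, opposite exons of Odf2, had 699, 584 and 501. The 1507 of snoRNA biotype summed to 439, 432 and 325. Gm23865 was named after its values were seen. These are counts on the annotated strand, and the genes named here were read with the same strand setting that left 0.165% of the counts of the locus on the strand of 18S RNA. Whether the libraries were selected for poly(A)+ RNA or depleted of ribosomal RNA cannot be told apart from these counts.

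The genes that make and mature ribosomal RNA were described from lists of 15 genes for synthesis by RNA polymerase I and 63 for processing, chosen with earlier results of these data known. Each library was set against the other 2. The spread of a lone library cannot be measured, so it was assumed to vary like the other 2, and the calls compare libraries, not conditions. In replicate 3, the quasi-likelihood test of edgeR called 11 list members lower and none higher, and DESeq2 called 2 lower, Npm1 and Ncl. Npm1, the nucleolar chaperone nucleophosmin, had 1284 counts in replicate 1, 307 in replicate 3 and 696 in replicate 4. Its log2 fold change in replicate 3 was −1.43 (SE 0.166, adjusted p = 1.49e-14 by edgeR). Ncl, the nucleolar protein nucleolin, had 1235, 326 and 670 counts, a log2 fold change of −1.29 (SE 0.166, adjusted p = 7.6e-12 by edgeR). Both were lowest in replicate 3 and highest in replicate 1, and both kept their call under every alternative run. No exons of another gene lie opposite Npm1 or Ncl, so fragments on their other strand were counted for no gene. Whether their counts follow their transcript levels was not tested.

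These counts stand beside a large number of calls over all genes. Over the 6922 genes tested, edgeR called 12.4% lower and 2.79% higher in replicate 3, 1051 genes in all, and DESeq2 called 56. Of the 15 synthesis genes, 6 were tested and 1 was called lower. Of 51 processing genes tested, 10 were called lower. The median log2 fold change was −0.75 for the synthesis genes and −0.54 for the processing genes, against −0.11 for all genes tested. Without opposite-strand exons, as for Npm1 and Ncl, 7 of 33 list members (21.2%) were called lower, against 672 of 3060 genes in all (22.0%). Their median log2 fold changes were −0.81 and −0.82, so these list members lay at the background. The other class takes any overlap with an opposite exon, however short. Among its list members called lower, the overlap was 5 bases for Nop56, 8 for Gnl3, 45 for Dkc1 and 312 for Taf1d. Whether the values that follow depend on this cut-off was not tested. With opposite-strand exons, 4 of 24 list members (16.7%) were called lower, against 186 of 3862 (4.82%), with medians of −0.16 and 0.12.

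The other 9 calls depended on the tool, since none was made by DESeq2. With relative log expression scaling in edgeR, Nop56, Nop58, Dkc1 and Utp20 also lost their call, and the split over all genes was 212 higher and 379 lower, against 193 and 858 with TMM scaling. Nop56 and Nop58, core proteins of the box C/D particles that methylate ribosomal RNA, had log2 fold changes of −1.24 and −1.13 in replicate 3. Dkc1, the pseudouridine synthase dyskerin, was at −1.32. Utp20 and Mphosph10, parts of the small-subunit processome that assembles on the 18S precursor, were at −1.62 and −2.27. The RNA helicase Ddx21 was at −1.11 and the nucleolar GTPase Gnl3 at −1.75. The exosome nuclease Exosc10 was at −4.07, a value that rests on 29, 1 and 15 counts. Taf1d, a subunit of the selectivity factor that brings RNA polymerase I to its promoter, had 73, 21 and 71 counts and was at −1.57. The adjusted p-values of these 9 genes by edgeR lay between 0.00133 and 0.046.

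**Figure D5:**
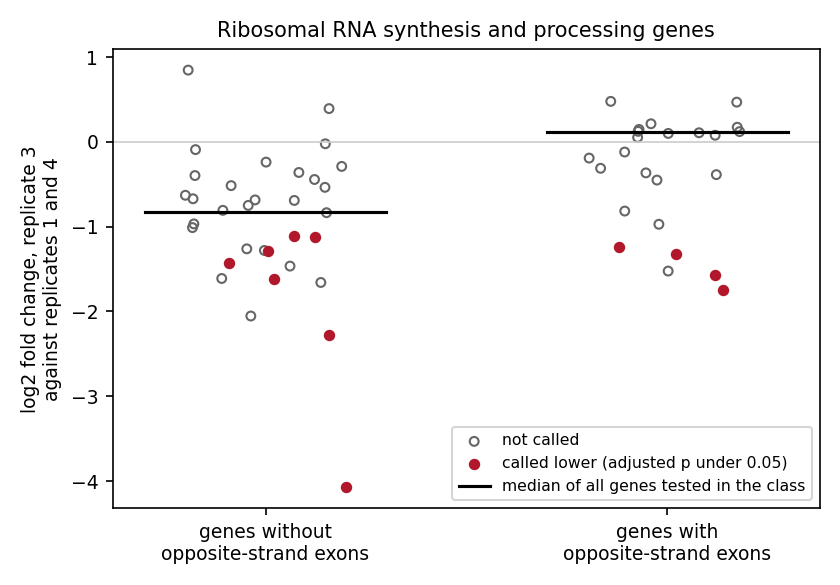
Log2 fold change of replicate 3 against replicates 1 and 4 for the 57 tested genes of ribosomal RNA synthesis and processing, split by whether exons of another gene lie opposite, with a line at the median of all genes tested in each class. The filled points are the 11 genes called lower, 7 without and 4 with opposite-strand exons, and the lines lie at −0.82 and 0.12.

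In replicates 1 and 4 no list member was called by edgeR or DESeq2. At an unadjusted p under 0.05, edgeR gave 4 of the 57 list members in replicate 1, all for processing, and 0 in replicate 4. Over all genes, 0.0289% were higher and 0% lower in replicate 1, with 106 and 25 at an unadjusted p under 0.05. In replicate 4, 0.0144% were higher and 0.0289% lower, with 25 and 12. The medians of the synthesis and processing genes were 0.33 and 0.29 in replicate 1, against 0.05 for all genes tested, and −0.04 and 0.08 in replicate 4, against 0.01. When replicate 1 or 4 was the lone library, the reference pair held replicate 3, so its distance entered the error. The SE of Npm1 was 0.329 for replicate 1 and 0.283 for replicate 4, against 0.166 for replicate 3. The comparisons thus did not have equal power, and their numbers of calls do not rank the libraries.

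By counts, the list was led by genes that lie opposite other exons. Bysl, a factor of small-subunit maturation, was at 1330 ± 48.2 CPM (SD, n = 3), with 3255, 2611 and 2184 counts, and Exosc9, a core exosome protein, was at 1064 ± 25.0 CPM, with 2593, 2064 and 1776. Their partners on the other strand are the cyclin genes Ccnd3, with 118, 58 and 84 counts, and Ccna2, with 937, 788 and 649. Without an opposite exon, Npm1 was at 368 ± 192 CPM and Ncl at 359 ± 176 CPM. Emg1 and Bud23, which methylate 18S RNA, were at 321 ± 7.70 and 195 ± 9.92 CPM. They lie opposite Lpcat3, with 65, 66 and 86 counts, and Dnajc30, with 0, 2 and 2. The strand that the first read takes is not stated. Whether the counts of Bysl, Exosc9, Emg1, Bud23 and their partners belong to the gene named or to the gene opposite was not tested. For Npm1 and Ncl, fragments on the other strand had no gene to be counted for. Genes of transcription by RNA polymerase I had fewer counts. Its largest subunit, Polr1a, was at 11.9 ± 4.54 CPM and Ubtf, the upstream binding factor, at 35.1 ± 13.5 CPM. These values are not corrected for length and give no order of transcript levels.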

How the data were processed

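The authors deposited raw counts of fragments per gene, made with featureCounts 1.4.6-p4 on exons of GENCODE vM13 (mm10), with both mates mapped and strand setting 1, from STAR alignments, per the file headers. The sources used here give no aligner version. GENCODE vM21 supplied symbols and biotypes by identifier, with 224 genes unmatched. Sequences came from the GENCODE vM21 transcripts, and the pseudogene entry from RefSeq. The members and lists were chosen with earlier results of these data known.

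CPM, TPM, shares with exact (Clopper-Pearson) 95% intervals and strand overlaps (bedtools 2.31.1) were computed with scipy 1.17.1, numpy 2.4.6 and pandas 2.3.3 under Python 3.11.15. Each of replicates 1, 3 and 4 was set against the other 2 with the quasi-likelihood test of edgeR 4.0.16 (R 4.3.3) on the counts, with TMM scaling, on genes with a mean count of at least 10, and p-values were adjusted by Benjamini-Hochberg, with a threshold of 0.05. SEs were taken from the fold change and its F value. The p-values measure only the spread between these libraries, which may be technical. DESeq2 1.42.0, another scaling, no filter and the inclusion of replicate 2 were alternatives. Named genes were the members, overlapping genes, preset ribosomal RNA genes, the 5 nearest in pattern, and list members called apart or highest by level. Gm20721, Phykpl and genes opposite a named gene were named after their values were seen. Replicate 2 entered no mean or test because of its depth, unless stated.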

Additional observations from a re-analysis of the deposited data

Results flagged for a closer look

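Replicate 2 stood apart from the other 3 libraries in both measures of Gm42418. Its share of all gene counts was 0.0797% there, against 0.00259% to 0.0143% elsewhere, and the gap to the nearest library was 0.848 of the whole range. Its percentage of the counts of both chromosome 17 genes was 1.95%, against 0.0547% to 0.242%, with a gap of 0.901 of the range. Both rest on the same 4 counts of Gm42418 in a library of 5016 gene counts, so they are not separate observations. Chance marks about 5% of groups of 4 in this way, a fixed share that takes no account of the depth of replicate 2. The shares of CT010467.1 and Gm26917 were not marked.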

How the results depend on the processing

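The mean share of CT010467.1 was 4.71% and ranged from 4.11% to 5.32% without replicates 1, 3 or 4 in turn. It rose to 37.6% when other genes with opposite-strand exons were taken out of the denominator, by the construction of that share. Under that denominator the share of Gm42418 was 0.0584%, and with replicate 2 included it was 0.0258%, which rests on 4 counts. It ranged from 0.00465% to 0.0105% without a replicate. The log2 ratio of Gm42418 to CT010467.1 stayed negative and within 1 SD of −9.51 under every alternative run, from −9.92 to −8.85 without a replicate, −9.08 per exonic base, −8.50 with replicate 2, and −9.76 per countable base, an alternative chosen after seeing the data.

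Genes called apart in replicate 1 numbered 2, and 1 with no filter on low counts. In replicate 4 they numbered 3, and 0 with DESeq2. In replicate 3 they numbered 1051, 591 with relative log expression scaling, 56 with DESeq2, 789 with no filter and 809 with replicate 2. The share of them that were higher went from 18.4% to 35.9%, 35.7%, 29.0% and 6.18%. List members called in replicate 3 numbered 11, and 7, 2, 8 and 11 under the same alternatives, all lower, of which 7, 2, 7 and 9 were among the 11. The median log2 fold change of all genes tested moved from −0.11 to −0.01 with the other scaling, and the causes of these differences were not tested. Leaving out a library from these tests could not be fitted, since 1 library against 1 leaves no residual degrees of freedom. No paired analysis was possible because the libraries form a single group. The comparisons of replicates 1 and 4 had replicate 3 in their reference pair, so the numbers called were not obtained at equal power. Depth limits replicate 2 to shares above 0.0598%.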
